A study of Mus musculus with 10 samples.

Results

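The genes described here encode guidance cues and their receptors: the ephrins and Eph receptors, the Slits and Robos, and the netrins and UNC5 receptors. They were chosen by symbol alone (Epha, Ephb, Efna, Efnb, Slit, Robo, Ntn and Unc5 with their numbers or letters), in families picked with earlier results of these data known. The rule found 36 genes, each with 1 probe set, among 24704 named genes: 9 EphA and 4 EphB receptors, 5 ephrin-A and 3 ephrin-B ligands, 3 Slits, 4 Robos, 4 netrins and 4 UNC5 receptors. Ephb2 was not analysed here. Ephrins are membrane-bound ligands, the A class held by a lipid anchor and the B class by a transmembrane segment, and their Eph partners are receptor tyrosine kinases, so that signalling needs contact between cells and can run into both of them. Slits are secreted and act through Robo receptors, and netrins are secreted, laminin-like proteins whose receptors include DCC, neogenin and the UNC5 family. All 3 systems are best known for guiding axons and also act on endothelium, where ephrin-B2 marks arterial and EphB4 venous cells and Robo4 is the Robo most tied to vessels.

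RNA was taken from a bead-selected fraction meant to hold liver sinusoidal endothelial cells (LSEC), the fenestrated lining of the liver's narrowest vessels, and hybridised to 10 Affymetrix arrays. The mice were female C57BL/6N, 10 weeks old at the start, with no genetic change named in the labels. The CDAA group ate a diet of that name, with 31% of its calories from fat and with 1% cholesterol, for 10 weeks, and the Std group ate a control diet for the same time. One label field gives 10 days, whereas titles and protocols give 10 weeks, which is used here. Each array held RNA of cells pooled from 3 mice and bound to beads against CD146 (Mcam), with 5 pools per diet, numbered CDAA 1 to CDAA 5 and Std 1 to Std 5. The series text also speaks of Gata4 knockout mice, which no sample is labelled as and which are not analysed here.

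All values are log2 signals, and every difference is CDAA minus Std. The median of all probe sets was 3.892 on an array, and no detection call is used here, so values below it were not known to lie above background. Signals of different genes come from different probes, so their levels are not ranked against each other. LSEC markers were high in both diets, with a list mean of 10.21 to 11.27 in CDAA arrays and 11.69 to 11.87 in Std arrays, but markers of other cells were present too. The pan-endothelial mean over 12 genes was lower in CDAA 3 (10.05) and CDAA 1 (10.44) than in the other CDAA arrays (10.84 to 11.13), against 11.34 to 11.49 in Std. Neutrophil markers averaged 9.93 in Std 3, against 4.30 to 4.72 in the other Std arrays. In bulk RNA, fewer endothelial cells in the isolate and less of a transcript in each of them cannot be told apart.

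Of the 36 guidance genes, 13 differed between the diets at a Benjamini-Hochberg adjusted p of 0.05 over all genes (limma), 7 higher and 6 lower with CDAA. That is 36.1% of them, beside 16.6% of all genes tested. By direction, 7.49% of all genes rose and 9.13% fell. The 6 genes that fell were Robo4, Ntn4, Unc5a, Efna1, Epha2 and Ephb4, all with signals above the array median on all 10 arrays. The 7 that rose were Slit2, Epha7, Epha1, Unc5b, Efna4, Efna5 and Ephb3, and the Std mean of 6 of these lay below the array median, with Unc5b the exception. Among the 17 guidance genes whose mean over all arrays was above that median, 9 changed (52.9%), beside 29.8% of the 12314 genes of that kind. The median difference was -0.11 over the 36 genes and -0.02 over all genes. The CDAA and Std arrays did not overlap for 10 of the 36, beside 13.9% of all genes. Without Std 3, 5 rose and 5 fell, beside 15% of all genes in either direction. Both ligands and receptors were among the called genes: 5 of 15 ligands and 8 of 21 receptors.

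**Figure D1:**
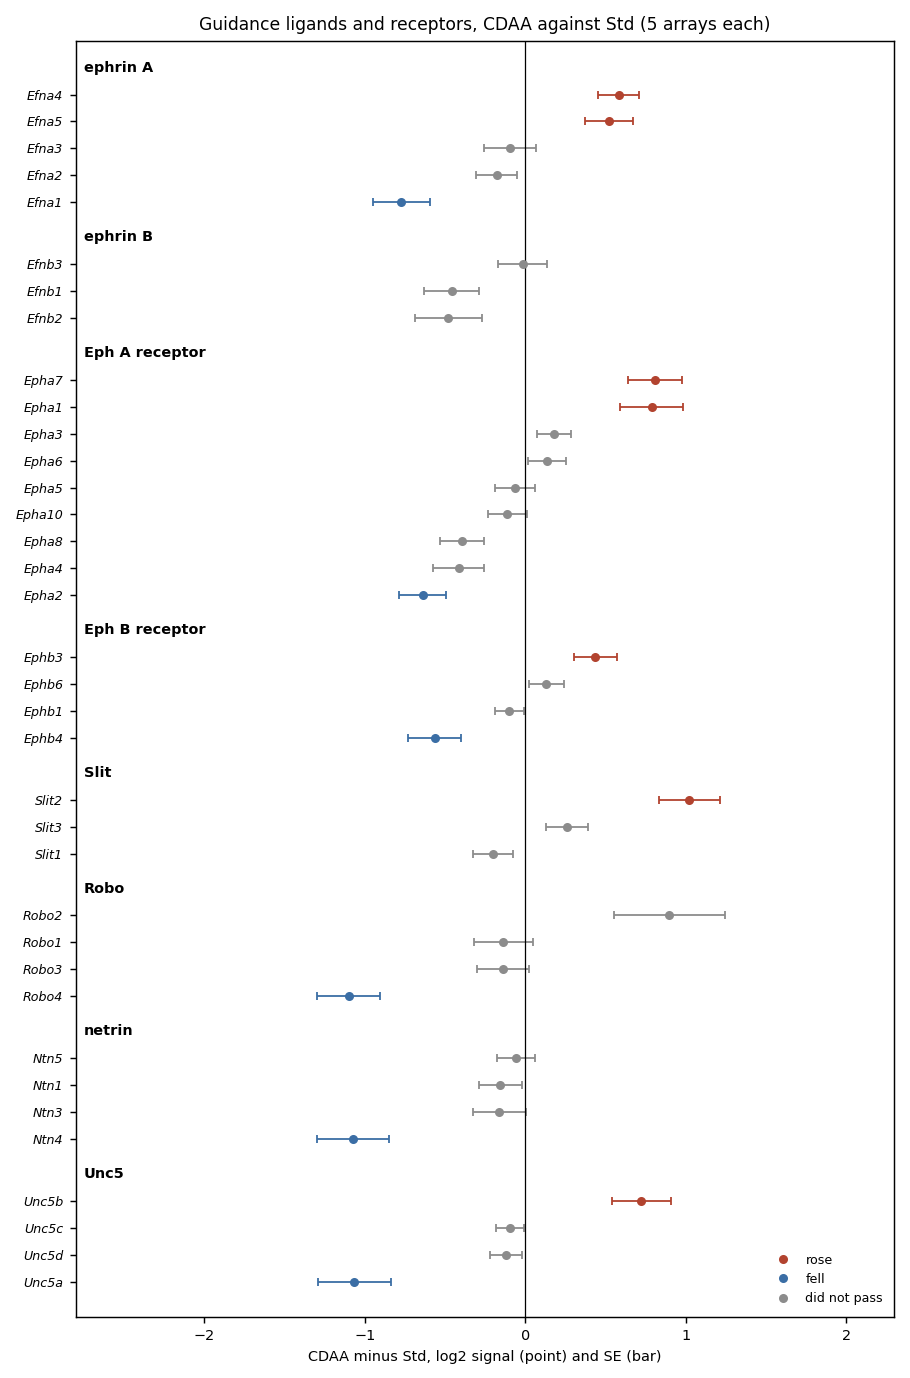
Difference in log2 signal (CDAA minus Std, horizontal axis) with its SE for the 36 guidance genes, grouped by family, with genes that rose in red, genes that fell in blue and the rest in grey. Robo4, Ntn4 and Unc5a lie near -1 and Slit2 near 1, while all 3 ephrin-B genes are grey.

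Stretches upstream of the gene start are shown for the genes that fell, which share a direction and lie above the array median on all 10 arrays. Of the 6, 5 had 150 bases outside the annotated gene in the RefSeq promoter table (GRCm38.p6). Capitals mark GGAAG or its reverse complement CTTCC, the core letters of ETS factor sites. ETS factors such as Erg are known regulators of endothelial genes. The stretches lie at chr9:37401752-37401901 (Robo4, plus strand), chr10:93640899-93641048 (Ntn4, plus strand), chr3:89280952-89281101 (Efna1, minus strand), chr4:141301071-141301220 (Epha2, plus strand) and chr5:137349959-137350108 (Ephb4, plus strand), each 5′ to 3′ on the strand named.
Robo4: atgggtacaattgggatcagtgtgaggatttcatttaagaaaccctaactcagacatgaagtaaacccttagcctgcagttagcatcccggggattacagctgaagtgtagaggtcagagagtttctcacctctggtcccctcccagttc
Ntn4: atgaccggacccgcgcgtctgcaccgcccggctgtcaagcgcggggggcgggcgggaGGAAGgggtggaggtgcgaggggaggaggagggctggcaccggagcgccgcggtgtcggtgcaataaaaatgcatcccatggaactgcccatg
Efna1: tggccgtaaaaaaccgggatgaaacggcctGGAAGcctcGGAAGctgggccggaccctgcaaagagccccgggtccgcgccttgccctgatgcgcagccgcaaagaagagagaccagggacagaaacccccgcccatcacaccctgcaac
Epha2: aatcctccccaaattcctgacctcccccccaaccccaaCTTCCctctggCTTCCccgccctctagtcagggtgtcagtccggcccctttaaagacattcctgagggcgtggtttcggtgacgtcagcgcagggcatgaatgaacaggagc
Ephb4: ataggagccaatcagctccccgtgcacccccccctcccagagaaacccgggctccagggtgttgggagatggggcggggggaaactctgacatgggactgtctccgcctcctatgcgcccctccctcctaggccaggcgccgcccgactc
The letters were found in 3 of these 5 stretches (Ntn4, Efna1 and Epha2) and in 2 of the 5 available for genes that rose. Searched on both strands, they occur in 47.7% of the 32851 windows of 150 bases just upstream of a start in the table. Those windows end at each listed start, whereas the stretches of the called genes end at the edge of the annotated gene. The windows and the stretches were thus not cut alike. In all, 8 motifs were searched on both strands, and GGAAG was picked to be marked after matches to all of them had been seen. GGGCGG was found in 4 of 5 stretches of genes that fell and 4 of 5 of genes that rose, against 28.6% of all windows. CACCC was found in 4 of 5 and 3 of 5, against 37.4%. TGGGAA was found in none of the genes that fell and in 1 of 5 that rose, against 13.1%. The other 4 motifs were found in no stretch of either kind: the longer ETS site CCGGAAGT, which contains GGAAG, against 2.4% of all windows, the GATA site AGATAA against 5.65%, the E-box CACGTG against 4.3% and the TATA box TATAAA against 7.57%. A match is a description of the letters and not a site.

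The ephrin-A ligands moved in both directions. Efna1, the main ligand of EphA2 and an endothelial gene induced by tumour necrosis factor, had 8.07, 8.58, 7.57, 8.62 and 8.40 in CDAA 1 to 5, against 9.02, 8.89, 9.08, 9.13 and 8.98 in Std 1 to 5. The groups did not overlap, and CDAA 3 was the lowest array. Efna1 fell by 0.77 ± 0.18 (SE; limma adjusted p = 0.0109), a signal 1.71-fold lower. Efna4 had 4.09, 3.77, 3.60, 3.54 and 3.58 in CDAA, against 3.20, 2.95, 2.94, 3.29 and 3.28 in Std, with no overlap. It rose by 0.58 ± 0.13 (limma adjusted p = 0.00819), with both group means below the array median. Efna5 had 3.55, 3.64, 4.22, 3.37 and 3.86 in CDAA, against 3.18, 3.17, 3.00, 3.39 and 3.27 in Std. The lowest CDAA array lay just below the highest Std array. Efna5 rose by 0.52 ± 0.15 (limma adjusted p = 0.0306), again with both means below the array median. It did not pass without CDAA 5 (0.49), Std 1 (0.52), Std 2 (0.51), Std 3 (0.47) or Std 5 (0.54). Efna2 and Efna3 differed by -0.18 and -0.09 and did not pass. Efna1, Efna3 and Efna4 lie near each other on mouse chromosome 3, and the first fell, the second did not pass and the third rose.

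None of the 3 ephrin-B ligands passed the test. Efnb2, the arterial ligand of EphB4, had 7.95, 8.70, 7.61, 8.82 and 8.60 in CDAA, against 8.83, 8.82, 8.73, 8.96 and 8.74 in Std. CDAA 1 and CDAA 3 were low, CDAA 4 was within the Std range, and CDAA 2 and CDAA 5 were just below it. The difference was -0.48 ± 0.21 (limma adjusted p = 0.150). For Efnb1 the CDAA arrays averaged 9.36 ± 0.40, against 9.81 ± 0.14 for Std (SD, n = 5 each). Its difference of -0.46 did not pass (limma adjusted p = 0.0931), but did without CDAA 4 (-0.59). Efnb3 differed by -0.02, with Std 5 (4.93) standing above the other Std arrays (4.04 to 4.29).

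Among the EphA receptors, Epha2 fell and Epha1 and Epha7 rose. Epha2, the receptor of ephrin-A1 in endothelium and epithelium, had 6.52, 6.57, 6.08, 6.61 and 6.04 in CDAA, against 7.21, 6.82, 6.91, 7.23 and 6.83 in Std, with no overlap. Here CDAA 5 was as low as CDAA 3, unlike the other genes that fell. The fall was 0.64 ± 0.14 on the log2 scale, so that Epha2 and its ligand Efna1 were both lower, with a limma adjusted p = 0.0100 for Epha2. Epha7, a receptor studied mostly in the nervous system, had 4.36, 4.44, 5.02, 4.39 and 4.36 in CDAA, against 3.72, 3.88, 3.68, 4.04 and 3.21 in Std. The groups did not overlap, and CDAA 3 stood above the rest. Epha7 rose by 0.81 ± 0.17 (limma adjusted p = 0.00700).

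Epha1, a receptor typical of epithelia, had 4.72, 4.72, 5.19, 4.02 and 4.60 in CDAA, against 4.00, 3.47, 4.15, 3.71 and 3.99 in Std. Only CDAA 4 reached into the Std range. Epha1 rose by 0.79 ± 0.19 (limma adjusted p = 0.0157), but not with CDAA 1 and CDAA 3 left out together (0.59, limma adjusted p = 0.0838). Epha4 differed by -0.42 and Epha8 by -0.39 without passing (limma adjusted p = 0.0943 and 0.0717), though no CDAA value of Epha8 reached the Std range. Epha4 passed without CDAA 4 (-0.54). The other 4 receptors, Epha3, Epha5, Epha6 and Epha10, differed by -0.11 to 0.18, and Epha5 and Epha6 lay below the array median on all 10 arrays.

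Of the EphB receptors, Ephb4 fell and Ephb3 rose, and neither call was firm. Ephb4, the venous receptor of ephrin-B2, had 9.35, 10.00, 9.16, 10.09 and 9.75 in CDAA, against 10.24, 10.15, 10.19, 10.38 and 10.21 in Std. CDAA 2 and CDAA 4 were just below the lowest Std array, and CDAA 1 and CDAA 3 were far below it. Ephb4 fell by 0.57 ± 0.17 (limma adjusted p = 0.0374). It remained called in only 2 of the 10 fits that left out 1 array, those without CDAA 2 (-0.65) or CDAA 4 (-0.67), and its difference was -0.44 without CDAA 3 and -0.29 without CDAA 1 and CDAA 3. Ephb3, a receptor of gut crypt epithelium among other tissues, had 3.58, 3.64, 3.98, 3.77 and 3.69 in CDAA, against 3.16, 3.72, 3.09, 3.12 and 3.39 in Std, where Std 2 lay among the CDAA values. It rose by 0.44 ± 0.13 (limma adjusted p = 0.0422), with both means below the array median, and of the 10 fits that left out 1 array it passed only without Std 2 (0.54). Ephb1 and Ephb6, which lacks kinase activity, differed by -0.10 and 0.13 and did not pass.

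Slit2 rose and the Robo receptors divided. Slit2, a secreted ligand of Robo1 and Robo2, had 4.46, 4.26, 4.54, 4.31 and 4.05 in CDAA, against 3.83, 2.93, 3.72, 3.14 and 2.89 in Std. The groups did not overlap, and Std 1 and Std 3 were the highest of their group. Slit2 rose by 1.02 ± 0.19 (limma adjusted p = 0.00346), a signal 2.03-fold higher. The Std mean of 3.30 was below the array median and so not known to lie above background. The size of the change in transcript is uncertain for that reason, and the difference can understate it. Slit3 and Slit1 differed by 0.26 and -0.20 and did not pass.

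Robo4, the endothelial Robo that acts in vessel stability, had 9.45, 10.12, 9.09, 10.26 and 9.80 in CDAA, against 11.03, 10.74, 10.72, 11.00 and 10.73 in Std. All CDAA arrays were well below all Std arrays. Robo4 fell by 1.10 ± 0.20 (limma adjusted p = 0.00282), a signal 2.14-fold lower, and had the smallest p of the 36 genes. Robo1 had 8.33, 8.69, 7.81, 8.91 and 8.79 in CDAA, against 8.71, 8.43, 8.74, 8.78 and 8.55 in Std. CDAA 3 and CDAA 1 were low, and the other CDAA arrays were within or above the Std range. The Robo1 difference of -0.14 ± 0.18 missed the threshold (limma adjusted p = 0.705). Robo2 ranged from 4.00 to 5.99 in CDAA (median 4.71), against 3.71 to 4.58 in Std (median 3.80), with CDAA 3 and CDAA 5 high. Its difference of 0.90 ± 0.34 did not pass (limma adjusted p = 0.102), but did without CDAA 4 (1.11). Robo3 differed by -0.14, with all its values below the array median.

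Ntn4 was the only netrin called. It encodes netrin-4, a laminin-binding protein of vascular basement membranes and a marker of periportal endothelium. Ntn4 had 9.30, 9.96, 8.78, 10.25 and 9.51 in CDAA, against 10.62, 10.60, 10.67, 10.78 and 10.50 in Std. The groups did not overlap, and the SD was 0.57 in CDAA, against 0.11 in Std. Ntn4 fell by 1.07 ± 0.22 (limma adjusted p = 0.00669), a signal 2.10-fold lower. Ntn1, the classical netrin, averaged 7.24 ± 0.23 with CDAA, against 7.39 ± 0.20 with Std (SD, n = 5 each), and the difference of -0.16 missed the threshold (limma adjusted p = 0.508). Ntn3 and Ntn5 differed by -0.16 and -0.06 and lay below the array median on all 10 arrays.

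The UNC5 receptors Unc5a and Unc5b changed in opposite directions. Unc5a had 5.93, 6.94, 5.81, 6.96 and 6.76 in CDAA, against 7.59, 7.25, 7.47, 7.71 and 7.70 in Std, with no overlap and with CDAA 1 and CDAA 3 lowest. It fell by 1.06 ± 0.23 (limma adjusted p = 0.00757), a signal 2.09-fold lower. Unc5b, the family member known from endothelial tip cells and also found in macrophages, had 5.97, 5.61, 6.40, 5.31 and 6.20 in CDAA, against 5.14, 5.20, 4.93, 5.41 and 5.18 in Std. CDAA 4 fell within the Std range and the other CDAA arrays above it. Unc5b rose by 0.72 ± 0.19 (limma adjusted p = 0.0191), a call that was lost with CDAA 1 and CDAA 3 left out together (0.53, limma adjusted p = 0.101). Unc5c and Unc5d differed by -0.10 and -0.12, with all values below the array median. Dcc and Neo1 (neogenin), which also encode netrin receptors, did not pass. Dcc differed by 0.09 around a mean of 2.96 in CDAA and 2.88 in Std, below the array median. Neo1 differed by -0.10 around 5.81 in CDAA and 5.91 in Std.

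**Figure D2:**
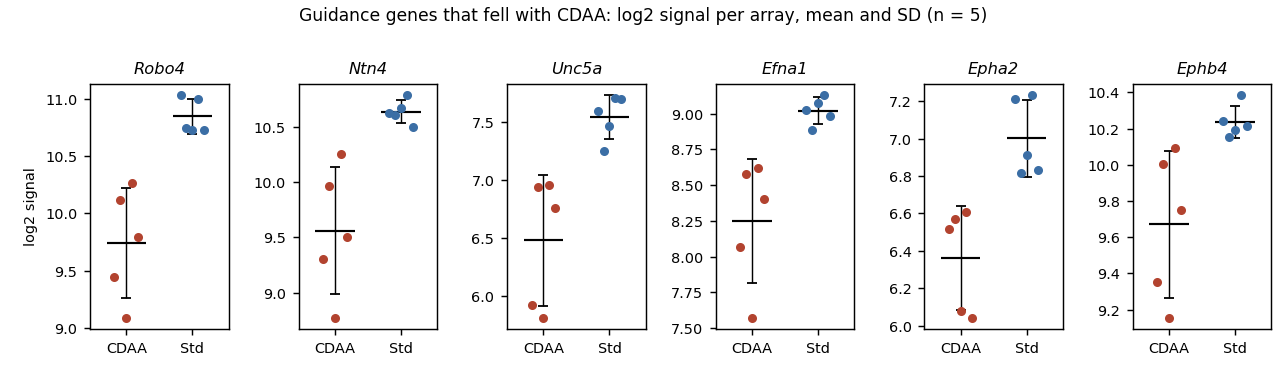
Log2 signal (vertical axis, own scale per panel) of the 6 guidance genes that fell, with a point per array, the mean as a bar and the SD as a whisker (n = 5 per diet). No CDAA point of any panel reaches the Std points, and the CDAA points are spread more widely.

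**Figure D3:**
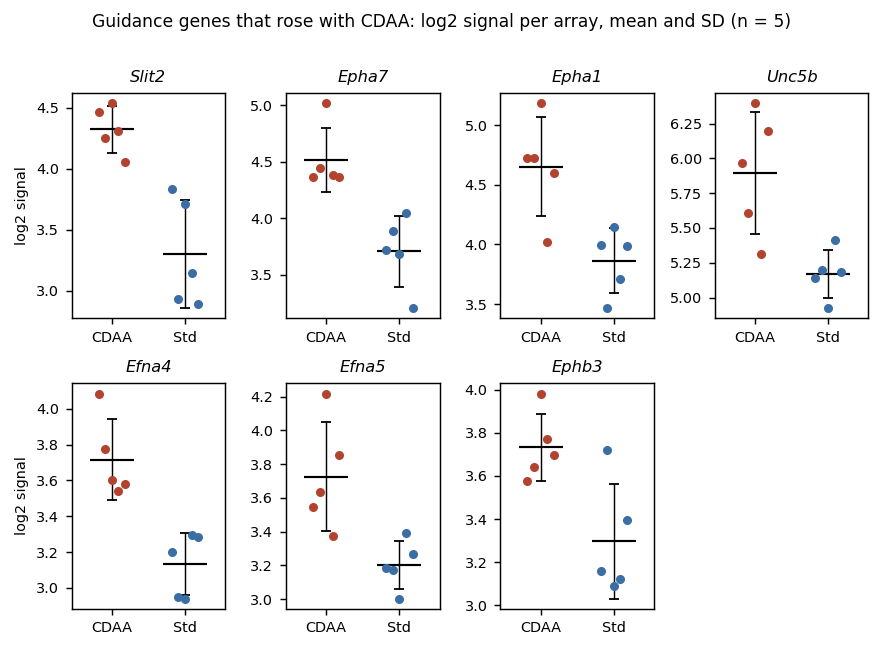
Log2 signal (vertical axis, own scale per panel) of the 7 guidance genes that rose, with a point per array, the mean as a bar and the SD as a whisker (n = 5 per diet). The groups are apart for Slit2, Epha7 and Efna4 and overlap for Epha1, Unc5b, Efna5 and Ephb3.

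The genes that fell did so beside the endothelial markers. The pan-endothelial mean was 10.44, 10.98, 10.05, 11.13 and 10.84 in CDAA 1 to 5, against 11.45, 11.39, 11.34, 11.49 and 11.37 in Std 1 to 5, a difference of -0.72, with 9 of its 12 genes fallen. CDAA 1 and CDAA 3 were the lowest CDAA arrays of 5 of the 6 guidance genes that fell, Epha2 being the exception, and also of the pan-endothelial mean. They were the lowest as well for 6 of the 23 guidance genes without a call, and the share of all genes was not worked out. With that mean as a covariate in the fit, none of the 36 genes passed (limma adjusted p), beside 1.31% of all genes. At an unadjusted limma p under 0.05, 4 were higher and 2 lower. The share of all genes at that unadjusted threshold was not worked out. The differences did not shrink alike in that fit. Of the genes that fell, Efna1 was at -0.07, Ntn4 at -0.17, Unc5a at -0.18, Robo4 at -0.31, Epha2 at -0.36 and Ephb4 at 0.09. Of those that rose, Slit2 was at 0.81 ± 0.31 (limma adjusted p = 0.267) and Efna4 at 0.51 ± 0.21 (limma adjusted p = 0.302). Both SEs were larger than in the fit without the covariate. Epha7 was at 0.50, Ephb3 at 0.30, Epha1 at 0.20, Unc5b at 0.18 and Efna5 at 0.15. That covariate differed between the diets. With CDAA 1 and CDAA 3 left out, 3 guidance genes rose and 5 fell, beside 10.6% of all genes in either direction.

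As a description, each of the 12 guidance genes above the array median on all arrays was set against the pan-endothelial mean of its own array. On this scale 6 of the 12 did not overlap between the diets, 4 higher and 2 lower with CDAA. The share of all genes on this scale was not worked out, so that count has nothing to be read against. Because the marker mean was itself lower by 0.72 with CDAA, a gene with unchanged signal would lie higher on this scale. Robo4 minus that mean gave -0.94 ± 0.08 with CDAA, against -0.56 ± 0.10 with Std (SD, n = 5 each), a difference of -0.38 with no overlap between the diets. Ntn4 behaved alike, with -1.13 ± 0.19 in CDAA and -0.78 ± 0.08 in Std. For Unc5a the difference was -0.34, with overlap. Efna1 and Epha2 differed by -0.05 and 0.08 on this scale, so that on average they were lower by about as much as the marker mean. In CDAA the SD was 0.05 for Efna1 but 0.37 for Epha2, which ranged from -4.80 to -3.92 and did not follow that mean from array to array. Ephb4 and Efnb2 were less reduced than the marker mean in every CDAA array, with differences of 0.16 and 0.24 and no overlap. For Robo1 the difference was 0.58, again with no overlap, at -2.18 ± 0.10 in CDAA and -2.77 ± 0.14 in Std. Unc5b, which rose, differed most, by 1.44, at -4.79 ± 0.84 in CDAA and -6.24 ± 0.13 in Std with no overlap. Efnb3, Ntn1 and Efnb1 differed by 0.70, 0.56 and 0.26, each with overlap. The choice of these genes and of this scale was made after their values were seen, and no test was made on it.

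**Figure D4:**
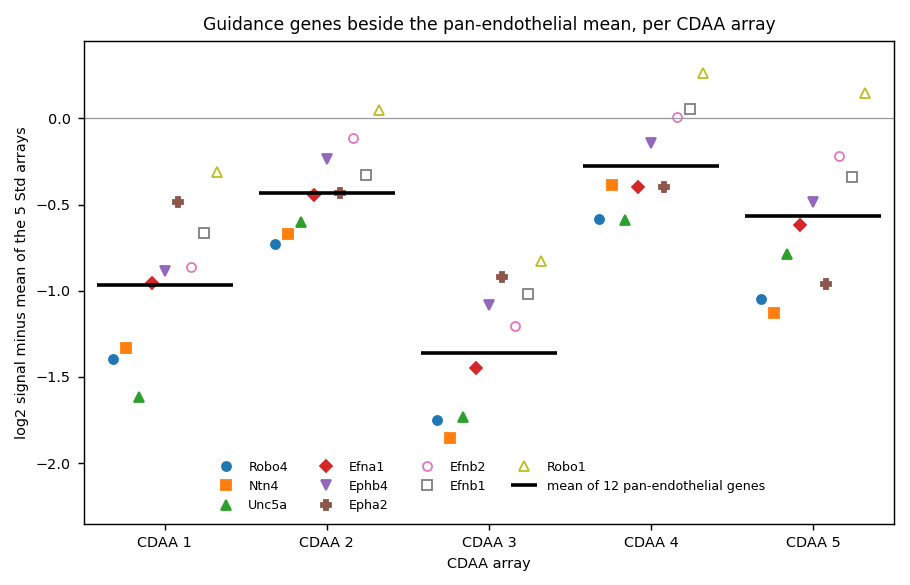
Log2 signal minus the mean of the 5 Std arrays (vertical axis) in each CDAA array (horizontal axis), with filled points for the 6 guidance genes that fell, open points for Efnb2, Efnb1 and Robo1, and a black bar for the mean of 12 pan-endothelial genes. Robo4, Ntn4 and Unc5a lie below the bar in all 5 CDAA arrays and Robo1 lies above it.

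The genes that rose did so beside markers of other cells. Stellate cell and fibroblast markers averaged 6.79 to 8.29 in CDAA arrays and 5.83 to 6.36 in Std arrays, with 7 of 12 genes risen. Cholangiocyte markers averaged 7.31 to 8.17 in CDAA and 4.51 to 5.49 in Std, with 7 of 7 risen, and markers of monocytes and recruited macrophages averaged 6.85 to 8.59 in CDAA and 4.13 to 5.16 in Std, with 6 of 7 risen. Lymphatic endothelial markers averaged 7.16 to 7.69 in CDAA and 6.64 to 7.15 in Std, with 2 of 4 risen and 1 fallen. Hepatocyte markers averaged 7.56 to 8.82 in CDAA and 7.22 to 7.93 in Std, with 3 of 8 risen and 1 fallen. Kupffer cell markers, of the resident liver macrophages, averaged 8.42 to 9.38 in CDAA and 8.69 to 9.82 in Std, with none of 9 risen and 4 fallen. CDAA 3 was the highest CDAA array for the recruited macrophage, stellate, hepatocyte and Kupffer cell lists. It was also highest for the T and NK cell and the Schwann and neuronal lists. CDAA 1 was highest for the cholangiocyte, lymphatic, neutrophil and B cell lists. No gene of the neutrophil, B cell, T and NK cell or Schwann and neuronal lists rose or fell. Of the 7 guidance genes that rose, 6 were highest in CDAA 3, Efna4 being the exception, beside 5 of the 23 without a call. The share of all genes highest in CDAA 3 was not worked out. Of the 4 Schwann and neuronal markers measured, 3 lay below the array median on all 10 arrays. The part of these cells in the guidance gene values was not tested.

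**Figure D5:**
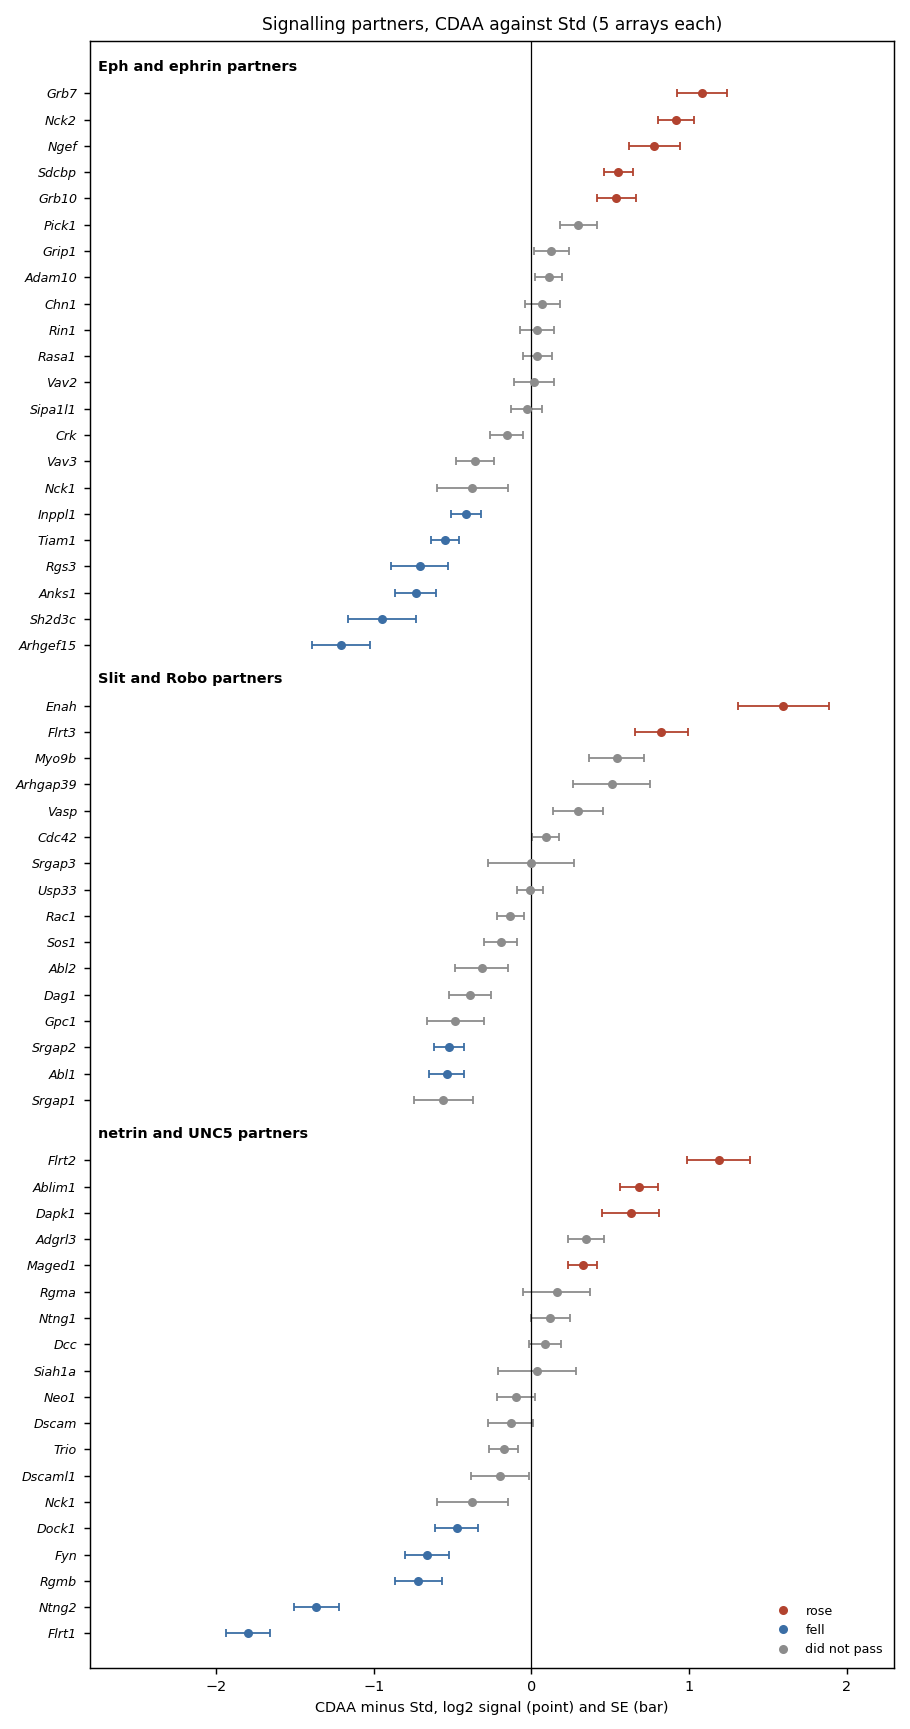
Difference in log2 signal (CDAA minus Std, horizontal axis) with its SE for signalling partners of the 3 systems, with genes that rose in red, genes that fell in blue and the rest in grey. Flrt1 and Ntng2 lie farthest to the left and Enah and Flrt2 farthest to the right.

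Signalling partners of the 3 systems also changed in both directions. Of 22 Eph and ephrin partners, 5 rose and 6 fell, beside 16.6% of all genes in either direction and 29.8% of genes with a mean above the array median, as 20 of the 22 had. Their median difference was 0.03. The adaptor Sh2d3c, which binds Eph receptors, fell by 0.95 ± 0.22, and the adaptor Grb7 rose by 1.08 ± 0.16. For both adaptors the CDAA arrays did not overlap with the Std arrays.

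Of 16 Slit and Robo partners, 2 rose and 2 fell (25.0%), beside 16.6% of all genes and 29.8% of those above the array median, where 14 of the 16 lay. The median difference was -0.07, and 4 fell without CDAA 4. In that fit 2583 of all 24704 genes fell, against 2255 with all arrays. Enah, an actin regulator whose fly counterpart binds Robo, had 6.02, 5.24, 6.58, 4.85 and 5.74 in CDAA, against 4.10, 3.87, 4.57, 3.65 and 4.25 in Std. It rose by 1.60 ± 0.29 (limma adjusted p = 0.00281), and CDAA 3 and CDAA 1 were highest, as in the recruited macrophage and stellate lists. Flrt3, a membrane protein that binds UNC5 receptors and Robo1, rose by 0.82 ± 0.17. Its values lay below the array median on all 10 arrays, with means of 3.53 in CDAA and 2.71 in Std, and the groups overlapped. The tyrosine kinase Abl1 fell by 0.54 ± 0.11.

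Of 19 measured netrin and UNC5 partners, 4 rose and 5 fell (47.4%), beside 16.6% of all genes and 29.8% of those above the array median, where 14 of the 19 lay. The median difference was -0.10, and 2 rose without CDAA 1, Std 2, Std 4 or Std 5. Of all 24704 genes, 1506, 1682, 1402 and 1512 rose in those fits, in that order, against 1851 with all arrays. Flrt1, of the same membrane protein family as Flrt3, had 5.29, 5.83, 5.36, 5.66 and 5.35 in CDAA, against 7.51, 6.93, 7.45, 7.32 and 7.24 in Std. It fell by 1.80 ± 0.14 (limma adjusted p = 1.94e-05), and CDAA 1 and CDAA 3 did not stand apart from the other CDAA arrays. Ntng2, a netrin-G held by a lipid anchor that does not act through DCC or UNC5, had 7.20, 7.29, 7.27, 7.81 and 7.67 in CDAA, against 8.72, 8.58, 8.87, 9.09 and 8.80 in Std, and fell by 1.36 ± 0.14. Flrt2, a ligand of UNC5 receptors, had 7.27, 7.82, 6.99, 8.12 and 7.73 in CDAA, against 6.33, 6.25, 6.16, 6.54 and 6.72 in Std. It rose by 1.19 ± 0.20 (limma adjusted p = 0.00192), and CDAA 3 and CDAA 1, the arrays with the lowest endothelial signal, were its lowest CDAA arrays. Flrt1, Ntng2, Flrt2 and Flrt3 kept their calls with the pan-endothelial covariate, at -1.53, -1.05, 1.92 and 1.18. Flrt3, below the array median on every array, did so only just (limma adjusted p = 0.047).

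The CDAA arrays varied more than the Std arrays. The SD was larger in CDAA for 24 of the 36 guidance genes (66.7%), beside 64.8% of all genes. By level, this held for 10 of the 19 at or below the array median (52.6%) and for 14 of the 17 above it (82.4%), beside 72.8% of all genes above it. Mcam, the target of the beads, was at 9.66 ± 0.34 in CDAA and 9.54 ± 0.10 in Std (limma adjusted p = 0.664). Its difference of 0.12 was 0.35 without CDAA 1 and CDAA 3, just past the threshold (limma adjusted p = 0.0499), and 0.66 with the pan-endothelial covariate, just short of it (limma adjusted p = 0.0554).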

How the data were processed

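Gene expression was measured on 10 Affymetrix arrays, 5 per diet. The deposited values are log2 signals that the authors made with RMA (robust multi-array averaging; named in the submitters' processing notes, version not given in the sources used here); biotinylated cRNA was hybridised, per the labels' protocols. RMA subtracts background and brings all arrays to one distribution, so differences are relative to the whole signal of an array. The platform annotation named 24705 of 25428 probe sets with 1 gene symbol, 0 with several, and left 723 unnamed here. Of 1 gene measured more than once the brighter probe set was used, so that 24704 genes entered the fit.

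Diets were compared by a linear model (limma 3.58.1, lmFit then eBayes, under R 4.3.3). Its two-sided p-values were adjusted by Benjamini-Hochberg across the 24704 genes, and 0.05 was the threshold. Only genes past it are said to rise or fall. The spread behind each p-value is that between pools of mice, and the number of arrays limits the precision. The members and lists were chosen with earlier results of these data known. Every guidance gene is named. From each of 3 partner lists the text names up to 3 genes with the largest change past the threshold, and Mcam, Dcc and Neo1. The largest change among the Eph and ephrin partners is not reported here. Marker list means leave out guidance genes. Ptk2, of the partner lists, was not analysed here. Promoter letters came from RefSeq (GRCm38.p6), where 32 of 36 genes had an entry. The fit was tested on simulated data. Alternatives were the replicate block, normalization, filters, variance models, array weights, all probe sets, a covariate and left-out arrays.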

Additional observations from a re-analysis of the deposited data

Results flagged for a closer look

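An array was looked at again when its gap to the nearest array of its diet exceeded 0.71 of that diet's range (Dixon's value for 5 arrays). This held for 5 of the 72 sets of 5 values of the guidance genes, and chance gives about 1 in 20. Epha7 in CDAA 3 was at 5.02, against 4.44 for the next CDAA array (0.875 of the range). It rose also without CDAA 3 (0.68). In Std, Robo2 was at 4.58 in Std 1, against 3.92 for the next (0.757), Epha8 at 4.26 in Std 5, against 3.76 (0.749), and Efnb3 at 4.93 in Std 5, against 4.29 (0.721). Epha5 was lowest in Std 3 at 2.34, against 2.69 (0.716). None of the last 4 genes passed the test with all arrays.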

How the results depend on the processing

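The 7 rises and 6 falls among guidance genes became 5 to 7 rises and 5 to 8 falls when 1 array was left out. They were 5 and 7 with the replicate number as a block, and 3 rises and 5 falls without CDAA 1 and CDAA 3. With genes below the median left out, 3 rose and 6 fell. That fit held only 17 guidance genes, and 4341 of its 12352 genes changed. Slit2, Efna4, Efna5 and Ephb3 were removed by that filter, so their rises could not be called there. With the pan-endothelial covariate the counts were 0 and 0 (limma, with 4 and 2 at an unadjusted limma p under 0.05). Equal replicate numbers were not taken to pair the arrays, since nothing in the labels ties them and not every same-numbered pair deviated together: correlations over genes were 0.016 to 0.249, over 0.1 for numbers 2, 3 and 4, whose best match was also the same number, but not for 1 and 5. With the replicate block Efna5 and Ephb3 lost their calls (limma adjusted p = 0.0617 and 0.0713) and Epha4 gained one (limma adjusted p = 0.0456). Robo4, Ntn4, Unc5a, Efna1, Epha2 and Epha7 passed under 19 of 20 alternatives and Slit2 and Efna4 under 18 of 19, failing only with the covariate; Slit2 and Efna4 were not tested with genes below the median left out.

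With the covariate (limma), partner counts were 1 risen and 0 fallen for Eph, 1 and 0 for Slit, and 1 and 2 for netrin. These stand beside 1.31% of all genes. At an unadjusted limma p under 0.05, 5 Eph and 2 Slit partners were lower, with no share of all genes worked out at that threshold. Without CDAA 1 and CDAA 3, 2 netrin partners rose, and with 1 array left out 2 to 5 did. Of all 24704 genes, 1305 rose without CDAA 1 and CDAA 3, and 1402 to 1989 with 1 array left out, against 1851 with all arrays. Slit partners fallen numbered 4 with genes below the median left out or with an intensity trend and robust variance together, and 2 to 4 with 1 array left out. Over all genes, 2500 of 12352 fell with that filter and 2233 of 24704 with the trend and robust variance. With 1 array left out 1554 to 2583 fell, against 2255 with all arrays. The cause of these moves was not tested.

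Some differences changed sign, Ephb4 alone among called genes. With the covariate Ephb4 was at 0.093, Efnb1 at 0.19, Efnb2 at 0.38, Efnb3 at 0.11, Efna3 at 0.044, Epha3 at -0.070, Epha5 at 0.12, Epha6 at -0.10, Ntn1 at 0.19, Ntn3 at 0.068, Ntn5 at 0.12, Robo1 at 0.57, Robo2 at -0.14, Dcc at -0.020 and Neo1 at 0.045, none past the threshold. Without CDAA 1 and CDAA 3, Efnb3 was at 0.056, Epha5 at 0.034 and Robo1 at 0.15. Efnb3 was at 0.037 with array weights and ranged from -0.086 to 0.14 with 1 array left out, Epha5 from -0.15 to 0.012, Ntn5 from -0.11 to 0.0088, Robo1 from -0.24 to 0.037 and Efna3 from -0.18 to 0.019. Background correction could not be varied, and dim genes such as Efna4, Efna5 and Ephb3 are limited by signal over background.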
